A study of Mus musculus with 30 samples.

Results

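The genes described here are 8 that code for Wnt receptors and coreceptors of the plasma membrane. Among them are those known to pass Wnt7a, Wnt7b and Norrin signals in brain endothelial cells (ECs). Whether brain ECs use each of the 8 genes was not tested. They were taken as a list of gene symbols, 8 of the 21847 protein-coding genes in the files, and all 8 were found and passed the filter on low counts in every comparison. They are the Frizzled genes Fzd4, Fzd6 and Fzd8, the LDL receptor-related genes Lrp5 and Lrp6, the tetraspanin gene Tspan12, the adhesion G protein-coupled receptor gene Adgra2, which is also called Gpr124, and Reck, which codes for a GPI-anchored protein. The rule uses no measured value.

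In canonical Wnt signaling, a ligand brings a Frizzled receptor together with Lrp5 or Lrp6, and beta-catenin then escapes degradation and acts with TCF and LEF factors in the nucleus. In CNS ECs, Norrin from glia signals through Fzd4 with Lrp5 or Lrp6 and the coactivator Tspan12, while Wnt7a and Wnt7b signal through Frizzled receptors with a coactivator complex of Gpr124 and Reck. Both routes are known for their role in CNS angiogenesis and in the formation and maintenance of the blood-brain barrier.

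RNA-seq gave transcript levels in 14 libraries of brain cells from adult male mice in 4 groups, and ATAC-seq gave the accessible chromatin of 10 libraries in 3 of these groups. Acutely isolated ECs (2 libraries) were the GFP-positive cells of Tie2-GFP mice, in which GFP marks ECs, and GFP-negative cells of such mice gave 2 further libraries, with cerebrum and cerebellum combined in all 4. WT cultures (6 RNA-seq libraries) were brain ECs selected with puromycin and grown for 8 days, from C57BL/6J mice in replicates 1 and 2 and from Ctnnb1flex3/+;Tie2-GFP mice, which carry no Cre and had received 4HT at P10, in replicates 3 to 6. Stabilized cultures (4 RNA-seq libraries) were grown in the same way from Ctnnb1flex3/+;Pdgfb-CreER;Tie2-GFP mice, in which 4HT at P10 lets an EC-expressed Cre remove an exon of 1 Ctnnb1 allele, so that the beta-catenin it codes for resists degradation. Cells in which that exon was not removed would still be in these wells. Each culture came from the pooled brains of several mice, and replicates are wells, 2 from each experiment, so that p-values measure the spread between wells and experiments of few mice. Where a group holds 1 culture experiment, its wells give the spread between wells alone. Method A, a papain digestion, gave the first 2 RNA-seq replicates of both genotypes and ATAC-seq WT replicates 1 and 2, and method B, with a Dounce homogenizer, gave the other cultures, both ATAC-seq stabilized replicates included. For RNA-seq, WT replicates 3 and 4 were sequenced for 150 cycles at another facility, all other cultures for 36 cycles in paired reads, and the acutely isolated cells for 75 cycles in single reads, so that read type and culture cannot be told apart.

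Libraries held from 24284843 to 94686456 estimated counts. The 9 EC markers fixed for this work, among them Pecam1, Cdh5 and Cldn5, summed to 2999 to 3044 TPM in the acutely isolated ECs, 1722 to 4321 TPM in the WT cultures and 1915 to 5820 TPM in the stabilized cultures, but to 9.13 to 20.8 TPM in the GFP-negative cells. In counts, 4 of the 9 were called lower and 1 higher in WT cultures against acutely isolated ECs, with a median log2 fold change of -1.86. Of all genes tested, 10.2% were called lower and 13.5% higher there. In stabilized cultures 4 were lower and 1 higher too (median -0.86), where 11% and 15% of all genes tested were. The 8 pericyte markers summed to 546 to 560 TPM in the acutely isolated ECs and to 405 to 777 TPM in the GFP-negative cells, against 4.69 to 10.8 TPM in the WT cultures and 6.58 to 21.5 TPM in the stabilized cultures. The 5 astrocyte markers summed to 1379 to 3326 TPM in GFP-negative cells, 87.2 to 466.5 TPM in acutely isolated ECs and 3.36 to 45.7 TPM in WT cultures. The 4 erythrocyte markers summed to 5443 to 41094 TPM in the acutely isolated ECs and to at most 1.39 TPM in the WT cultures, where all 4 were called lower. The 4 smooth muscle markers went the other way, from 214 to 233 TPM in the acutely isolated ECs to 501 to 3068 TPM in the WT cultures, where 3 were called higher and 1 lower. Their part in the differences between acutely isolated and cultured cells given next was not tested. In bulk samples, fewer cells of a type and less RNA per cell cannot be told apart.

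Levels were compared between genes in TPM, the abundance per transcript length on a scale with the same sum in every library. In acutely isolated ECs, Fzd6 (98.1 ± 30.6 TPM, SD, n = 2), Tspan12 (85.3 ± 39.9) and Lrp6 (71.8 ± 1.55) were the most abundant. Tspan12 overlapped both others between libraries, while Fzd6 and Lrp6 did not overlap. Adgra2 (22.1 ± 3.88), Lrp5 (22.0 ± 3.56) and Fzd4 (21.3 ± 2.37) followed, apart from Lrp6 above and from Reck (12.9 ± 3.23) below, and Fzd8 (0.737 ± 0.475) was lowest. In WT cultures the order by mean was Adgra2 (56.8 ± 37.6 TPM, SD, n = 6), Fzd6 (39.1 ± 16.7), Tspan12 (32.0 ± 10.7), Fzd4 (29.8 ± 15.4), Lrp5 (13.1 ± 8.14), Lrp6 (12.9 ± 6.05), Reck (5.32 ± 2.51) and Fzd8 (4.67 ± 2.82). Every neighboring pair in that order overlapped between libraries. The stabilized cultures gave Adgra2 first (115.9 ± 60.5 TPM, SD, n = 4) and Reck and Fzd8 last, and again every neighboring pair overlapped.

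The first comparison asks which of these transcripts are enriched in ECs over the other sorted cells. Of the 8 genes, 7 were called higher in GFP-positive than in GFP-negative cells, where 8.28% of the 15116 genes tested were called higher. To be called, a gene needed an adjusted p (Benjamini-Hochberg, edgeR's quasi-likelihood test on counts) under 0.05, a change over 2-fold and at least 5 TPM in every library of the higher group. The median log2 fold change was 2.08 for the 8 genes and -0.06 for all genes tested. For the comparisons with GFP-negative cells or acute ECs, the share of all genes whose groups did not overlap in TPM is not given here. A lack of overlap there describes the libraries of a gene and was not weighed against that share.

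Fzd6, a receptor also known for planar cell polarity, showed the largest difference. It stood at 120 and 76.4 TPM in the acutely isolated ECs and at 1.58 and 4.23 TPM in GFP-negative cells, with a log2 fold change in counts of 5.08 ± 0.47 (SE, adjusted p = 0.00191). Both EC libraries lay far above both GFP-negative libraries. Fzd4, the Norrin receptor, was at 19.6 and 22.9 TPM against 5.63 and 6.08 TPM, and it rose by 2.21 ± 0.34 on the log2 scale (adjusted p = 0.00695). Fzd8 was at 0.401 and 1.07 TPM against 0.580 and 0.685 TPM, and with a log2 fold change of 0.45 ± 0.64 (adjusted p = 0.641) no difference was detectable. The Fzd8 values of the groups overlapped, at the lowest level of the 8 genes.

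Adgra2 was at 19.4 and 24.8 TPM in ECs and at 5.16 and 5.67 TPM in GFP-negative cells (log2 fold change 2.41 ± 0.32, adjusted p = 0.00449). Reck, its partner, was at 10.7 and 15.2 TPM against 2.76 and 2.50 TPM (2.36 ± 0.41, adjusted p = 0.0100). For both genes every EC library was above every GFP-negative library. Without GFP-negative replicate 2, the adjusted p of Reck was 0.0532.

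The LRP coreceptor genes and Tspan12 were also present in the GFP-negative cells. Lrp5 was at 19.5 and 24.5 TPM against 3.44 and 7.49 TPM (log2 fold change 1.94 ± 0.36, adjusted p = 0.0117). Lrp6, which many tissues express, was at 70.7 and 72.9 TPM against 14.4 and 51.3 TPM (1.42 ± 0.32, adjusted p = 0.0223). For Tspan12 the groups overlapped, with 114 and 57.1 TPM in ECs against 37.3 and 60.6 TPM, although its counts passed the test (1.33 ± 0.38, adjusted p = 0.0447). The calls of Lrp6 and Tspan12 were lost without GFP-negative replicate 1 (adjusted p of 0.0802 and 0.249), without GFP-negative replicate 2 (0.131 and 0.146) and without acutely isolated replicate 1 (0.0769 and 0.194). The call of Tspan12 was also lost with no filter on low counts (0.0640), with scaling by library size (0.124), with an offset for transcript length (0.274) and with a block for replicate numbers (0.0849), and it held in 5 of 12 alternatives. That of Lrp6 was lost with the length offset too (0.137). The call of Lrp5 was lost without GFP-negative replicate 1 (0.0781). With all 14 libraries in one fit, the calls of Lrp6 (0.165), Lrp5 (0.177) and Adgra2 (0.0795) were lost. The GFP-positive and GFP-negative libraries share their read type.

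The second comparison, of WT cultures with acutely isolated ECs, shows how the receptors stood after 8 days in culture. Fzd6, Lrp6 and Reck were called lower and none of the 8 was called higher, where 10.2% of the 13798 genes tested were called lower and 13.5% higher. Fold changes are in counts scaled by TMM, and they differ from ratios of TPM where the effective length of a gene's transcripts differed between libraries. Over all genes tested, the median log2 fold change was 0.10 and the median log2 ratio of mean TPM was 0.64, so that the 2 scales are centered differently. The median log2 fold change of the 8 genes was -1.03. Overlap of TPM between the groups is described per gene, without the share over all genes.

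Among the Frizzled genes, Fzd6 was at 120 and 76.4 TPM in the acutely isolated ECs and between 19.3 and 56.0 TPM (median 42.8) in the WT cultures. All 6 cultures were below both acute libraries, and the log2 fold change was -2.25 ± 0.40 (adjusted p = 0.00242), or 4.75-fold lower. Fzd4 was at 19.6 and 22.9 TPM in acute ECs and between 9.23 and 51.4 TPM (median 29.2) in culture. Here the groups overlapped, with both cultures of method A below the acute libraries and the other 4 above them. Its counts had a log2 fold change of -1.08 ± 0.41 (adjusted p = 0.0582), whereas its mean TPM was higher in culture, and with an offset for transcript length the log2 fold change was -0.23 (adjusted p = 0.690). The sign for Fzd4 therefore depends on the scale, and so does the center of all genes tested. Their median log2 value was 0.10 in counts, 0.03 with the length offset and 0.64 in TPM. The ratio of mean TPM of Fzd4 lay below that median, so that its higher TPM is not a rise relative to all genes. Without WT replicate 5 its adjusted p was 0.0403, with a log2 fold change of -1.24.

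Fzd8, another Frizzled receptor, was at 0.401 and 1.07 TPM there and between 2.46 and 9.04 TPM (median 3.33) in culture. Every culture was above both acute libraries (log2 fold change 1.13 ± 0.36, adjusted p = 0.0293), but since 4 of the 6 cultures lay below 5 TPM it did not meet the TPM minimum of a call. Without acutely isolated replicate 1 the log2 fold change was 0.75 (adjusted p = 0.182), and without WT replicate 3 the adjusted p was 0.0538.

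Lrp6 was at 70.7 and 72.9 TPM in acute ECs and between 6.38 and 20.7 TPM (median 11.0) in WT cultures, with no overlap between the groups. The log2 fold change of its counts was -2.13 ± 0.68 (adjusted p = 0.0306), or 4.38-fold lower. That call was lost without any 1 of 4 libraries, with adjusted p of 0.130 without acutely isolated replicate 1, 0.0709 without acutely isolated replicate 2, 0.0528 without WT replicate 1 and 0.0541 without WT replicate 2. It was also lost with the wells of each experiment summed (-2.06, adjusted p = 0.0627). Lrp5 was at 19.5 and 24.5 TPM in acute ECs and spread over 7.50-fold in culture, from 2.95 to 22.1 TPM (median 15.0), so that the groups overlapped (log2 fold change -0.79 ± 0.99, adjusted p = 0.540).

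Among the coactivators, Reck was at 10.7 and 15.2 TPM in acute ECs and between 3.05 and 8.76 TPM (median 4.54) in WT cultures. All 6 cultures were lower, by a log2 fold change of -2.49 ± 0.24 (adjusted p = 0.000150), or 5.63-fold. Its partner Adgra2 was at 19.4 and 24.8 TPM in acute ECs and spread over 6.24-fold in culture, between 17.8 and 111 TPM (median 52.7), with a log2 fold change of 0.19 ± 0.97 (adjusted p = 0.887). The cultures of 150 cycles lay below both acute libraries and the other 4 cultures above them. Tspan12, the Norrin coactivator, was at 114 and 57.1 TPM in acute ECs and between 16.3 and 43.5 TPM (median 35.6) in culture. All 6 cultures were lower in TPM, and in counts the log2 fold change of -0.99 ± 0.35 (adjusted p = 0.0475) fell just short of the 2-fold limit. With an offset for transcript length Tspan12 was called lower (-2.14, adjusted p = 0.00529). Without acutely isolated replicate 1 it was -0.67 (adjusted p = 0.298), and its adjusted p was also over 0.05 without acutely isolated replicate 2 (0.0629) and without WT replicate 3, 4, 5 or 6 (0.0692, 0.0696, 0.0608 and 0.0837). Without WT replicate 1 or 2 it was called lower (-1.07 and -1.09, adjusted p of 0.0478 and 0.0435).

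**Figure D1:**
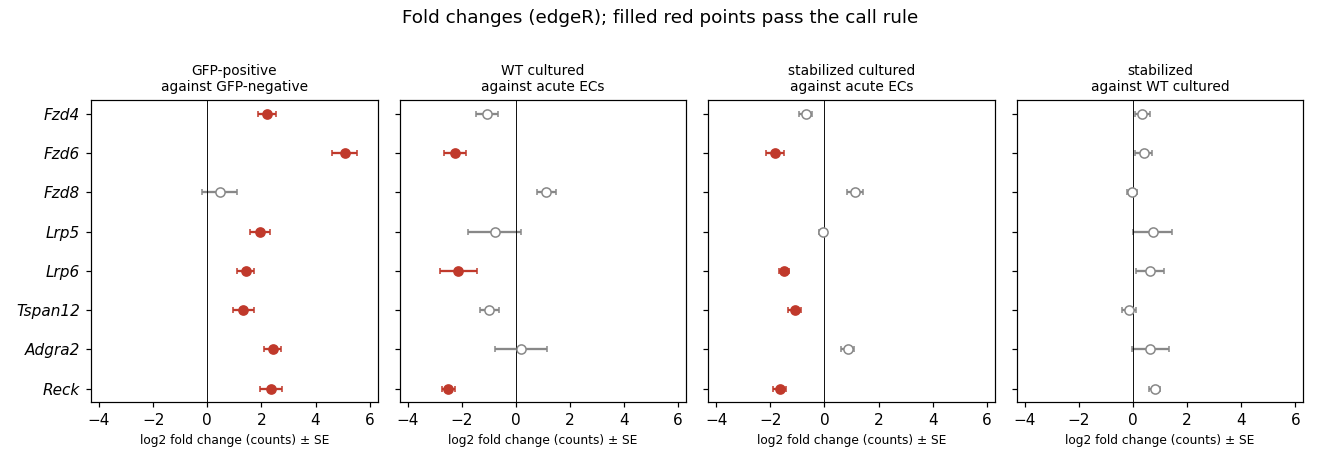
Log2 fold change in counts of each of the 8 genes in the comparisons of acute ECs with GFP-negative cells, of WT and of stabilized cultures with acute ECs, and of stabilized with WT cultures, with bars of 1 SE. Between WT cultures and acute ECs, Reck (-2.49), Fzd6 (-2.25) and Lrp6 (-2.13) lie farthest below 0, and the bars of Lrp5 (SE 0.99) and Adgra2 (SE 0.97) are the widest.

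The spread of Adgra2 and Lrp5 followed the experiments. Set against the same acute libraries, Adgra2 had a log2 fold change of 1.05 (adjusted p = 0.0166) in the 2 wells of method A, -2.79 (adjusted p = 0.00163) in the 2 wells of 150 cycles and 0.27 (adjusted p = 0.260) in the 2 wells of method B and 36 cycles. It was thus called higher in one experiment, where 15.2% of genes were, and lower in another, where 15.3% were. Lrp5 had -0.63 (adjusted p = 0.0464), -4.16 (adjusted p = 0.00115) and 0.05 (adjusted p = 0.822) in the same order. In the wells of 150 cycles, both genes were lower than in every other culture, at 17.8 TPM in both wells for Adgra2 and at 3.94 and 2.95 TPM for Lrp5. Without those wells, Adgra2 had a log2 fold change of 0.71 (adjusted p = 0.133) and Lrp5 of -0.24 (adjusted p = 0.522). Facility, read length and experiment cannot be told apart for these wells.

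The 3 genes called lower over all cultures were called lower within each experiment too, where 13.2%, 15.3% and 11.4% of all genes tested were. Fzd6 had log2 fold changes of -1.68, -2.44 and -2.87, Reck of -2.37, -2.37 and -2.77, and Lrp6 of -2.75, -3.62 and -1.13, for method A, 150 cycles, and method B with 36 cycles. Fzd4 was called lower in the wells of method A (-1.86, adjusted p = 0.0105), and its values were -1.0 (0.0255) and -0.62 (0.0825) in the others. Tspan12 was called lower in the wells of method B and 36 cycles (-1.59, adjusted p = 0.0155). Fzd8 had 1.22, 1.32 and 0.80 and was called higher in the wells of 150 cycles (adjusted p = 0.0462), where 21.2% of genes were. These comparisons all use the same 2 acute libraries, and each uses 2 wells of 1 experiment. The 3 genes were picked by the pooled fit, which holds these same wells. Their calls within experiments are therefore no independent test, and the share over all genes is not that of genes already called.

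Stabilized cultures were set against the same acute libraries as the WT cultures, and each comparison is given by its own values. Fzd6, Lrp6, Tspan12 and Reck were called lower and none of the 8 higher, where 11% of the 13904 genes tested were called lower and 15% higher. Fzd6 was at 84.1, 87.2, 26.3 and 26.9 TPM in stabilized replicates 1 to 4, against 120 and 76.4 TPM in acute ECs. The 2 wells of method A thus overlapped the acute libraries and the 2 of method B lay below them, and the log2 fold change in counts was -1.82 ± 0.33 (adjusted p = 0.00407). Lrp6 was at 25.8, 34.3, 16.3 and 14.02 TPM, all below the acute 70.7 and 72.9 TPM (-1.501 ± 0.18, adjusted p = 0.000907). Reck was at 14.8, 16.7, 4.90 and 4.92 TPM, with the wells of method A at the acute level of 10.7 and 15.2 TPM and those of method B below it (-1.66 ± 0.25, adjusted p = 0.00203). Fzd6 and Reck overlapped the acute libraries in TPM yet were called in counts. Tspan12 was at 47.2, 48.9, 24.5 and 23.6 TPM, all below both acute libraries (-1.10 ± 0.24, adjusted p = 0.00827), and without acutely isolated replicate 1 its log2 fold change of -0.78 no longer passed the 2-fold limit. The call of Tspan12 was also lost with the wells of each experiment summed (-1.04, adjusted p = 0.0761), with scaling by library size (-0.95, under the 2-fold limit) and in the wells of method A alone (adjusted p = 0.0605), and that of Lrp6 with all 14 libraries in one fit (adjusted p = 0.0657).

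Adgra2 was at 165, 171, 64.2 and 62.9 TPM in the stabilized cultures and at 19.4 and 24.8 TPM in acute ECs. Every stabilized well was higher, and the log2 fold change in counts was 0.85 ± 0.23 (adjusted p = 0.0167), under the 2-fold limit. With an offset for transcript length it was 1.69 (adjusted p = 0.00253). Without acutely isolated replicate 2 the adjusted p was 0.0591. Fzd4 was at 40.0, 48.7, 30.6 and 28.5 TPM, all above the acute 19.6 and 22.9 TPM, while its log2 fold change in counts was -0.70 ± 0.22 (adjusted p = 0.0333) and with the length offset 0.20 (adjusted p = 0.474). Fzd4 thus points in opposite directions on the count and TPM scales. Over all genes tested, the median log2 fold change in counts was 0.04 and the median log2 ratio of mean TPM was 0.52. The ratio of mean TPM of Fzd4 (36.9 in stabilized cultures, 21.3 in acute ECs) lay above that median, unlike in WT cultures. The adjusted p of Fzd4 was over 0.05 without acutely isolated replicate 1 (0.136) and without stabilized replicate 1, 2 or 4 (0.0762, 0.0774 and 0.0554). Lrp5 was at 36.2, 39.3, 18.6 and 16.3 TPM, around the acute 19.5 and 24.5 TPM (-0.05 ± 0.15, adjusted p = 0.770). Fzd8 was at 5.39, 5.98, 2.68 and 2.60 TPM, above both acute libraries (1.13 ± 0.29, adjusted p = 0.0160) but below the TPM minimum in 2 wells.

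The fourth comparison asks whether stabilized beta-catenin changes the receptors in culture. Pooled over all wells, 0 of the 8 genes and 0% of the 12971 genes tested were called between stabilized and WT cultures by edgeR. At an unadjusted p under 0.05 there were 561 genes higher and 861 lower, 11% of those tested, and DESeq2 called 15 higher and 3 lower, none of them among the 8 genes. Of the 8, Reck alone had an unadjusted p under 0.05 (log2 fold change 0.80 ± 0.21, adjusted p = 0.368 by edgeR's quasi-likelihood test and 0.0249 by DESeq2). The others ranged in log2 fold change from -0.16 (Tspan12) to 0.72 (Lrp5), with SE between 0.18 and 0.73. For all 8 genes the wells of the 2 genotypes overlapped in TPM, while 0.439% of all genes tested had every stabilized well above every WT well and 0.285% had the reverse.

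Isolation method differed between wells of both genotypes, so that the genotypes were also compared within a method. With method A, Reck was at 14.8 and 16.7 TPM in stabilized wells and at 3.38 and 5.69 TPM in WT wells. With method B and 36 cycles it was at 4.90 and 4.92 TPM against 3.22 and 3.05 TPM. Stabilized wells were the higher ones in both, by 0.98 ± 0.11 (adjusted p = 0.00112) and 0.75 ± 0.08 (adjusted p = 0.00201) on the log2 scale of counts, and by 0.86 ± 0.10 (adjusted p = 0.00352) with method as a term over the 8 libraries of 36 cycles, where 9.03% of all genes were higher at an adjusted p under 0.05. These changes were below 2-fold. Within a method, each genotype is 1 experiment of 2 wells, so that p-values measure the spread between wells alone. Genotype and experiment therefore cannot be told apart within either method. With the wells of each experiment summed over all cultures, Reck had 0.82 ± 0.37 and did not pass an adjusted p of 0.05. Within methods, edgeR called 693 genes higher (5.39% of those tested) and 120 lower for method A, and 139 higher (1.08%) and 37 lower for method B. The WT wells of method A came from C57BL/6J mice. The study's Results word the 4HT injection as for controls of both strains. Its Methods can be read as giving 4HT to the Ctnnb1flex3/+;Tie2-GFP controls alone. Whether the C57BL/6J mice received 4HT is thus not plain, and strain, alleles, 4HT and genotype cannot be told apart there.

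At an adjusted p under 0.05, 29.2% of all genes tested were higher and 26.7% lower with method A, and 19.5% and 17.6% with method B. Fzd4 rose by 0.93 ± 0.16 with method A (adjusted p = 0.00352) and had 0.11 ± 0.08 with method B (adjusted p = 0.288). Fzd6 had 0.16 ± 0.08 with method A (adjusted p = 0.133) and rose by 0.63 ± 0.05 with method B (adjusted p = 0.000972). Lrp6 rose by 1.15 ± 0.16 with method A (adjusted p = 0.00169), as the 1 gene of the 8 to be called within a method, and had -0.29 ± 0.09 with method B (adjusted p = 0.0511). Lrp5 rose by 0.59 ± 0.07 with method A (adjusted p = 0.00132) and had -0.15 ± 0.09 with method B (adjusted p = 0.232). Adgra2 had -0.04 ± 0.08 with method A (adjusted p = 0.720) and rose by 0.38 ± 0.05 with method B (adjusted p = 0.00314). Tspan12 fell by 0.33 with method A (SE 0.07, adjusted p = 0.00923) and had 0.25 ± 0.10 with method B (adjusted p = 0.0965).

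The difference between the methods was tested as an interaction, with method A as the reference, on the 8 libraries of 36 cycles. It passed an adjusted p of 0.05 for 6 of the 8 genes, where it did so for 49.5% of the 13369 genes tested. The interaction was -1.42 ± 0.21 for Lrp6 (adjusted p = 0.000838), -0.80 ± 0.20 for Fzd4 (0.0109) and -0.72 ± 0.12 for Lrp5 (0.00178). It had the other sign for Tspan12 (0.59 ± 0.13, 0.00586), Fzd6 (0.49 ± 0.11, 0.00501) and Adgra2 (0.44 ± 0.10, 0.00562). Fzd8 (0.26 ± 0.12, adjusted p = 0.114) and Reck (-0.21 ± 0.15, adjusted p = 0.249) did not pass it. Each method is 1 experiment per genotype, so that method, experiment and the strain of the control mice cannot be told apart.

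The relative use of the Frizzled genes was described as each gene's share of the summed TPM of the 10 Frizzled genes, which was 125 TPM in acute ECs, 73.8 TPM in GFP-negative cells, 94.5 TPM in WT cultures and 113 TPM in stabilized cultures on average. Fzd6 made up 82.2% and 72.9% of it in the acute libraries and 26.3% to 64.6% (median 37.5%) in WT cultures, and 57.8%, 54.5%, 34.9% and 37.5% in the stabilized wells. Every culture was below both acute libraries. Fzd4 made up 13.4% and 21.9% in acute ECs and 16.2% to 41.6% (median 33.4%) in WT cultures, with an overlap. Fzd8 made up 0.275% and 1.02% in acute ECs and 3.37% to 6.01% in WT cultures. In GFP-negative cells most of the sum came from genes outside the list, with Fzd1 at 25.3% and 61.3% and Fzd3 at 52.5% and 11.8%.

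**Figure D2:**
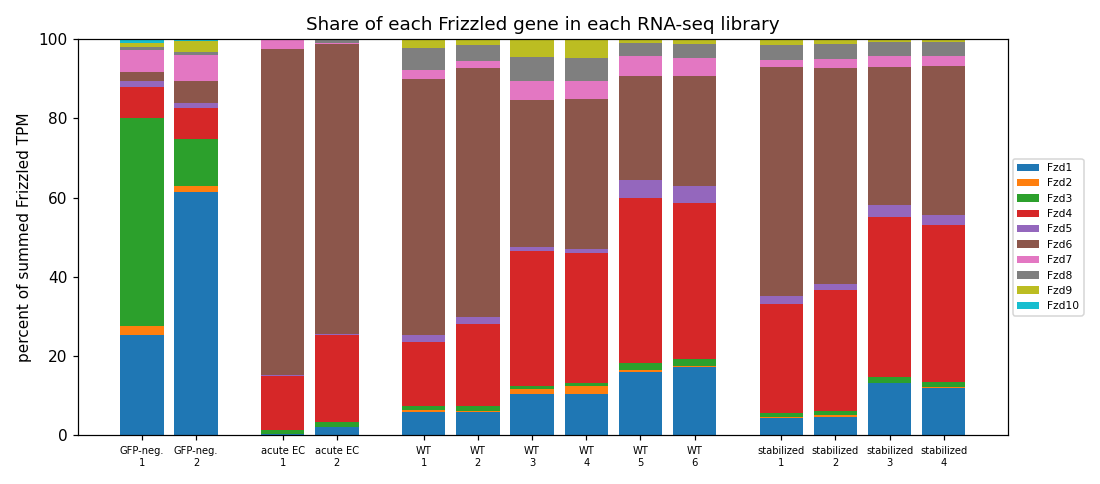
Percent of the summed TPM of the 10 Frizzled genes taken by each in every RNA-seq library, as stacked bars that reach 100%. Fzd6 takes 82.2% and 72.9% in the acute ECs and 26.3% to 64.6% in WT cultures, where Fzd4 is at 16.2% to 41.6%.

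Within partner pairs, the balance in TPM also differed between acute and cultured cells. The TPM of Lrp6 was 3.63 and 2.98 times that of Lrp5 in acute ECs, 0.511 to 2.82 times in WT cultures and 0.713 to 0.875 times in stabilized cultures. The TPM of Adgra2 was 1.82 and 1.63 times that of Reck in acute ECs and 10.3 to 13.1 times in stabilized cultures. In WT cultures it was 16.0 to 26.2 times in 4 wells and 2.03 and 2.28 times in the wells of 150 cycles, so that all cultures were above both acute libraries. Summed over the 8 genes, the acute libraries held 374 and 295 TPM, the WT cultures 166 to 265 TPM and the stabilized cultures 180 to 452 TPM.

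Much of the TPM of 4 genes in acute ECs was assigned to annotated transcripts that cover only part of the gene. The description of this split was chosen after its values were seen. Such transcripts took 81.3% of the TPM of Lrp6 in acute ECs (mean of 2) and 33.9% in WT cultures (mean of 6), 74.8% and 7.49% for Tspan12, 61.3% and 1.68% for Lrp5 and 43.2% and 9.02% for Fzd6. In counts, in which short transcripts weigh less, the shares were 22.3% and 5.39% for Lrp6, 45.2% and 2.15% for Tspan12, 30.0% and 0.821% for Lrp5 and 5.66% and 1.15% for Fzd6. Fzd4 and Fzd8 have 1 annotated transcript each. The short transcripts included one of 727 bases for Tspan12 (63.0 TPM in acute ECs), one of 722 bases for Lrp6 (32.6 TPM), one of 2759 bases for Lrp5 (13.3 TPM) and one for Fzd6 that is annotated as a target of nonsense-mediated decay (33.1 TPM).

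Counting only transcripts that cover the whole gene changes several levels. Fzd6 was then at 53.4 ± 2.02 TPM in acute ECs, 36.3 ± 17.0 in WT cultures and 51.4 ± 31.3 in stabilized cultures. Lrp6 was at 13.5 ± 4.86, 9.02 ± 5.65 and 17.2 ± 5.99 TPM in the same order. Tspan12 was at 17.4 ± 7.56, 30.2 ± 11.6 and 32.1 ± 17.5 TPM, so that its mean was higher in culture on this scale. So was that of Lrp5, at 8.71 ± 3.84, 12.9 ± 8.11 and 27.2 ± 11.5 TPM. With all transcripts counted, TPM over all genes tested was higher in culture as well. The median log2 ratio of mean TPM to acute ECs was 0.64 in WT and 0.52 in stabilized cultures. Reck remained lower in WT cultures by its mean (11.8 ± 3.69 TPM in acute ECs and 5.32 ± 2.51 TPM in WT cultures), with every culture below both acute libraries. Fzd6 was lower by its mean too, but its acute libraries (54.8 and 51.9 TPM) overlapped WT replicate 3 (54.9 TPM). Lrp6 also overlapped, at 10.1 and 16.9 TPM in acute ECs and 3.91 to 17.2 TPM in WT cultures. Its mean in stabilized cultures was above that in acute ECs. The assignment of reads to overlapping transcripts was made by the authors' program, and read type differs between acute and cultured libraries, so that its part in these shares cannot be told apart from that of culture. Exons of Adgra2, Fzd6 and Tspan12 share 73, 152 and 98 bases with genes on the other strand (Brf2, Gm26704 and Gm30270), whose reads were not told apart here.

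The other genes of the pathway were taken from a list of 64 ligands, other receptors, inhibitors and receptor-proximal proteins. Between GFP-positive and GFP-negative cells, 3 of the 50 tested were called higher and 6 lower, where 8.28% and 7.55% of all genes tested were, with a median log2 fold change of -2.72 beside -0.06 for all genes. Those higher in ECs were Notum (5.64), which codes for a secreted enzyme that inactivates Wnt ligands, Apcdd1 (4.73), a membrane inhibitor of Wnt signaling, and the ligand gene Wnt5a (3.0). Those lower in ECs were the receptor genes Adgra1 (-7.01), Fzd1 (-4.08) and Fzd3 (-2.47), the R-spondin receptor gene Lgr4 (-3.90), Dkk3 (-5.60) and the secreted inhibitor gene Wif1, which was at 0 TPM in both acute EC libraries and at 21.9 and 9.64 TPM in GFP-negative cells. The ligand genes Wnt7a, Wnt7b and Ndp, which codes for Norrin, had mean TPM of 1.27, 2.32 and 5.61 in GFP-negative cells, and none was above 0.11 in its mean in acute or cultured ECs.

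In WT cultures against acute ECs, 4 of 37 pathway genes tested were called higher and 3 lower, where 13.5% and 10.2% of all genes tested were, with a median log2 fold change of 0.49 beside 0.10 for all genes. Frzb, a secreted Wnt inhibitor, was at 0.395 and 0 TPM in acute ECs and at 29.7 to 249.4 TPM (median 69.5) in WT cultures. Dvl1 (1.65), an adaptor that binds Frizzled receptors, the Wnt receptor gene Ryk (1.30) and Wls (1.13), which is needed for Wnt secretion, were higher as well. Apcdd1, a known target of beta-catenin signaling in CNS ECs, was at 419 and 412 TPM in acute ECs and at 10.6 to 39.9 TPM (median 27.6) in WT cultures (-4.06). Notum fell by 8.98 and Wnt5b by 4.33 on the log2 scale. In stabilized cultures against acute ECs, 4 of 41 were higher (Frzb, Dvl1, Ryk and Kremen1, a receptor of Dickkopf inhibitors) and 3 lower (Notum -7.85, Wnt5b -4.15 and Apcdd1 -2.97), where 15% and 11% of all genes tested were, with a median of -0.06 beside 0.04. Apcdd1 was at 46.1, 46.0, 44.4 and 38.9 TPM in the stabilized wells. Between stabilized and WT cultures, 0 of 35 were called, with a median of -0.11 beside -0.07 for all genes.

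By the Pearson correlation of log2(TPM + 1) over the 14 libraries, the 2 genes most like each receptor were Grb10 (r = 0.98) and Nomo1 (0.97) for Fzd4, Ccm2l (0.98) and Ets1 (0.97) for Fzd6, and Poglut1 (0.9955) and Mfsd14b (0.99) for Fzd8. They were Slc39a1 (0.96) and Ctdsp1 (0.95) for Lrp5, Ccdc186 (0.96) and Rrm2b (0.95) for Lrp6, Mmp15 (0.95) and Adamts10 (0.95) for Tspan12, Zc3hav1 (0.97) and Rpl27a (0.97) for Adgra2, and Dock1 (0.94) and Nkapd1 (0.94) for Reck. These values describe 9061 genes ranked over libraries that share group, experiment and read type.

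Accessible chromatin was described with the peaks that the authors called in each ATAC-seq library, past a fold enrichment of 2 over the local background and a -log10 q of 2. A peak lay within 1000 bp of an annotated start for all 8 genes in 9 of the 10 libraries, and for 6 in WT replicate 2, where Lrp5 and Adgra2 had none. Over all 21847 genes, 54.7% to 66.5% per library had such a peak. WT replicate 2 held 33152 peaks, against 31844 to 98840 over all libraries, and a peak under its threshold is not detectable there. At the starts of Fzd4, Fzd8, Lrp6 and Tspan12, the highest fold enrichment in acute libraries (12.2, 13.8, 13.6 and 12.3 on average) lay within the range of the WT cultures.

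At the start of Fzd6, the highest fold enrichment was 14.6 and 12.8 in the acute libraries, 7.44 to 9.39 (median 8.96) in the 6 WT cultures and 7.86 and 8.94 in the stabilized cultures. All 8 cultures lay below both acute libraries, and the share of all genes whose start did so is not given here. For Reck it was 13.9 and 12.8 in acute ECs, 7.44 to 13.5 (median 11.4) in WT cultures, with an overlap, and 9.36 and 9.66 in stabilized cultures. For Lrp5 it was 7.83 and 5.87 in acute ECs, 3.05 to 5.92 in the WT cultures with a peak, and 4.76 and 4.10 in stabilized cultures. For Adgra2 it was 6.92 and 5.12, 4.75 to 5.76, and 4.89 and 4.97 in the same order. Acute and WT values overlapped for both genes. Fold enrichment depends on the depth and background of a library, and no counts per peak were in the lists used here.

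Merging overlapping peaks of all libraries gave 108 regions within 10000 bp of the 8 genes. Of these, 5 (4.63%) were present in both acute libraries and in no culture, where 2.84% of all 126224 regions were, and 7 (6.48%) were present in all 8 cultures and in no acute library, where 8.01% of all regions were. The acute libraries held 37453 and 31844 peaks and the cultures 33152 to 98840. A region without a called peak in a library is thus not shown to be closed there. The part of peak number in both classes was not tested. Of the 5 acute regions, 4 are described here, namely 1 inside Fzd6 (summit 26199 bp from its 5′ end), 1 upstream of Adgra2 (summit at -2319 bp from its 5′ end) and 2 inside Reck (9273 and 19850 bp). The 7 culture regions lay downstream of Fzd4 and Fzd6, inside Lrp5 (2) and upstream of it (summit at -7099 bp), and inside and downstream of Lrp6. None lay at Fzd8 or Tspan12.

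To show what these regions hold, 200 bases around each summit were read from the GRCm38 genome on the plus strand. Capitals mark matches on either strand to CTTTGA (TCF and LEF factors), TGANTCA (AP-1), GGAATG (TEAD), ACAATG (SOX) or GGGCGG (the GC box of SP and KLF factors). The windows of these 4 regions found in both acute libraries and no culture are as follows, each inside its gene except that of Adgra2.
Fzd6, chr15:39032133-39032332: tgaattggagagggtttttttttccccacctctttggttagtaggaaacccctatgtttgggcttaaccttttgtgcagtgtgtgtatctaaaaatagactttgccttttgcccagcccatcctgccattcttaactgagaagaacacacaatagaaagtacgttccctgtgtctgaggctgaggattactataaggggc
Adgra2, chr8:27083164-27083363: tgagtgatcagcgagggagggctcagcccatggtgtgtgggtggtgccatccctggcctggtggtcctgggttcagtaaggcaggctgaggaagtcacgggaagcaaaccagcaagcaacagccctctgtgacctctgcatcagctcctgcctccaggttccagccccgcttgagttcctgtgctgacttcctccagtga
Reck, chr4:43884703-43884902: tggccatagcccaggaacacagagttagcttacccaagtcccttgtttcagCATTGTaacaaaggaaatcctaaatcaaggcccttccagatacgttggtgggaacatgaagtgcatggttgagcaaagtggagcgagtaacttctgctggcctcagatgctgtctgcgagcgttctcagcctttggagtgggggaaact
Reck, chr4:43895280-43895479: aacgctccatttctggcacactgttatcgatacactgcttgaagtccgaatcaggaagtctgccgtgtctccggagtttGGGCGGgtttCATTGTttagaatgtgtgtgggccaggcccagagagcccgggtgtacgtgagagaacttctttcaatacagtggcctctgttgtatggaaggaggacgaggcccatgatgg

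None of these 4 windows holds CTTTGA, where 31.0% of the windows of this class over the genome do, against 13.3% of windows of all regions. ACAATG lies in both Reck windows, where 18.6% of the class hold it, against 14.7% of windows of all regions. The Reck window nearer the end of the gene also holds GGGCGG, which 8.0% of the class and 12.6% of all regions hold. Fold enrichment of the region inside Fzd6 was 9.81 and 7.73 in the acute libraries. It was 3.86 and 3.94 upstream of Adgra2, and 7.87 and 4.06, and 7.47 and 4.59, inside Reck.

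Of the regions found in all 8 cultures and no acute library, the one nearest the 5′ end of each of the 4 genes is shown in the same way.
Fzd4, chr7:89418403-89418602: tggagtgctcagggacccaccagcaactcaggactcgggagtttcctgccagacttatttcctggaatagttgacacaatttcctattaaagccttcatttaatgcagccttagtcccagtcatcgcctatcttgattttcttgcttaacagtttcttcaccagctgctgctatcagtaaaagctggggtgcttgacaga
Fzd6, chr15:39043374-39043573: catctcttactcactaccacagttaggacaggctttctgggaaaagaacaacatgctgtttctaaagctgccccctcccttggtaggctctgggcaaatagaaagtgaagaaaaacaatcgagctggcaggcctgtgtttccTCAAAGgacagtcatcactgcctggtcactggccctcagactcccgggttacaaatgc
Lrp5, chr19:3693563-3693762: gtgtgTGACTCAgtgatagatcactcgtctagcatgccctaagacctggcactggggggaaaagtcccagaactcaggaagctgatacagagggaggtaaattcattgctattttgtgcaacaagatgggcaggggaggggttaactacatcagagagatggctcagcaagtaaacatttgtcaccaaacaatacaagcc
Lrp6, chr6:134521988-134522187: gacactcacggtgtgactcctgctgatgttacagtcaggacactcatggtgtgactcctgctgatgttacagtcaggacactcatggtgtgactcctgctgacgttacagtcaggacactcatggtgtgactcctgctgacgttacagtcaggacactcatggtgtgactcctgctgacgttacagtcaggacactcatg

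The window upstream of Lrp5 holds TGACTCA, a form of TGANTCA, which 49.4% of the windows of this class hold, beside 25.1% of all regions. The window downstream of Fzd6 holds CTTTGA on the minus strand, where 11.7% of the class do, beside 13.3% of all regions. Of the culture windows not shown, that at chr19:3665626-3665825 inside Lrp5 also holds CTTTGA, and none holds TGANTCA. The window inside Lrp6 is a tandem repeat, in which 98.8% of the bases match the base 38 positions on. Fold enrichment was 5.39 to 16.4 in the 6 WT cultures and 10.1 and 12.4 in the stabilized cultures for the region upstream of Lrp5, and 10.3 to 16.0 and 12.8 and 10.7 for the region downstream of Fzd6. A match is a run of letters, and no window shows by itself that a factor binds.

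A promoter sequence of RefSeq (GRCm38.p6) was at hand for 3 of the 8 genes, Fzd4, Tspan12 and Reck. The one of Reck is shown because Reck was called lower in each set of cultures while its start kept a peak in all 10 libraries. It is the 250 bases before the start on the plus strand, and 68.4% of its bases are G or C, beside a median of 52.4% over 32851 promoters.
Reck, chr4:43875280-43875529: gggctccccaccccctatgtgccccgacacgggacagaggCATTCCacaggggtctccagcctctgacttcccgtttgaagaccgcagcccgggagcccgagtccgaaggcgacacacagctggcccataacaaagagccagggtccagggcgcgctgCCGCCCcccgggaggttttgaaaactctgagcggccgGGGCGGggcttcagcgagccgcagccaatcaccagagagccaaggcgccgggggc
It holds GGGCGG at 2 places, a motif present in 32.7% of those promoters, and GGAATG at 1, a motif present in 12.6%.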

How the data were processed

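Transcripts and accessible chromatin were measured in the groups that the sample labels give, and isolation method and read length follow the study's methods. The record of RNA-seq stabilized replicate 4 names DNA as its molecule, and its title was followed. Libraries of cerebrum alone were not used here.

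The authors quantified RNA-seq reads with Salmon 0.14.0 on GENCODE M21 transcripts, and the deposited files hold estimated counts, effective lengths in bases and TPM for each transcript. The authors aligned ATAC-seq reads with HISAT2 2.1.0 to GRCm38 and called peaks per library with MACS2 2.1.2. The deposited peaks hold a fold enrichment over background, the −log10 of a p and of a q, and a score that is the truncated −log10 q times 10.

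Transcript values were summed per gene, and summed counts were rounded. Depth was 24284843 to 94686456 counts per library, so that the spread between libraries, not counting error, limits the precision. Protein-coding genes were tested by the quasi-likelihood method of edgeR 4.0.16 (R 4.3.3) after filterByExpr and TMM scaling, with Benjamini-Hochberg adjustment over all genes tested, and the procedure was tested on simulated data. The SE of a log2 fold change is its size over the root of F. Alternatives were DESeq2 1.42.0, other scalings, filters, subsets of libraries and a block for replicate numbers. For likeness, log2(TPM + 1) was correlated. Mean values are given with the SD over libraries.

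All 8 members were named in each comparison, and of the pathway list the called genes with the largest change, up to 6 in each direction, with Wnt7a, Wnt7b and Ndp. The members and lists were chosen with earlier results of these data known, so that no result here is independent evidence for a pattern. Sequences came from the GRCm38 genome and RefSeq promoters, and 1 accessible region is not reported here.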

Additional observations from a re-analysis of the deposited data

Results flagged for a closer look

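Of 38 groups of 4 to 6 libraries checked for a value far from the others, 3 held one, and chance alone gives about 5%. In stabilized cultures, the TPM ratio of Lrp6 to Lrp5 was 0.713 in replicate 1 and 0.858 to 0.875 in the other 3. In WT cultures, the summed TPM of the 8 genes was 264.5 in replicate 2 and 166 to 197 in the other 5. In ATAC-seq of WT cultures, the highest fold enrichment at the start of Fzd8 was 9.83 in replicate 2 and 13.1 to 14.8 in the others. That ATAC-seq library held 33152 peaks, the fewest of the WT cultures, and the part of this in the value was not tested.

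The log2 difference between stabilized and WT cultures differed between isolation methods for 6 of the 8 genes, as tested with an interaction term on the libraries of 36 cycles, where 49.5% of all genes tested did so. The interactions, as method B minus method A, were -1.42 for Lrp6, -0.80 for Fzd4, -0.72 for Lrp5, 0.59 for Tspan12, 0.49 for Fzd6 and 0.44 for Adgra2. With scaling by library size, Fzd8 also passed (0.36, adjusted p = 0.0371). The control wells of the 2 methods came from mice of different genotype, so that method and control strain cannot be told apart.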

How the results depend on the processing

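Calls rest on few libraries and on wells, so that small differences were not detectable. Of the values of single genes under the alternatives, 517 kept their direction and side of the threshold, 26 became called, 28 lost the call and 21 changed sign.

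Between GFP-positive and GFP-negative cells, the 7 members called became 4 with all 14 libraries in one fit (4 to 7 with 1 library left out). In WT cultures against acute ECs, the 3 called became 5 with DESeq2 (Fzd4 and Tspan12 were added), 5 with method A alone and 6 with the wells of 150 cycles alone (2 to 4 with 1 library left out). Leaving out 1 library gave 3 to 4 for stabilized cultures against acute ECs and 0 throughout for stabilized against WT cultures. Fzd6 and Reck were called lower in all 21 alternatives for WT cultures and all 17 for stabilized cultures against acute ECs. Between stabilized and WT cultures, 0 became 1 (Lrp6) with method A alone.

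Values that changed sign were, between GFP-positive and GFP-negative cells, Fzd8 without acutely isolated replicate 2 (-0.047; -0.047 to 0.706 with 1 library left out). In WT cultures against acute ECs they were Adgra2 without WT replicate 1 (-0.0752), without WT replicate 2 (-0.0595; -0.0752 to 0.423 with 1 library left out) and with 150 cycles alone (-2.79), and Lrp5 with method B and 36 cycles (0.0521). Between stabilized and WT cultures they were Fzd8 with no filter (0.0101), in one fit (0.0064), with wells summed (0.0032), without WT replicate 1 or 3 (0.0297 and 0.034, in a range of -0.108 to 0.034), in the libraries of 36 cycles with and without a method term (0.0944 and 0.0797) and with method B (0.22), Tspan12 with the length offset (0.14) and with method B (0.25), Adgra2 with method A (-0.0369), and Lrp5 and Lrp6 with method B (-0.15 and -0.29). In stabilized cultures against acute ECs they were Lrp5 by library size (0.0692) and with wells summed (0.0132), and Fzd4 with the length offset (0.20). The cause of these changes was not tested. Fits limited to shared replicate numbers and to 36-cycle libraries without a method term, and the WT cultures of 36 cycles, were chosen after seeing the data.

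The replicate number as a block gave 5 members for WT cultures against acute ECs and 1 for stabilized against WT cultures, and so did the same libraries without the block (5 and 1). Same-numbered wells of the genotypes correlated in their deviations by r = 0.56, 0.56, 0.05 and 0.13, and pairs of GFP-positive and GFP-negative libraries by 0.09, so that the numbers were not shown to pair the samples. The block gave 150 genes higher and 40 lower between stabilized and WT cultures, and those libraries without it 162 and 51.

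With protein-coding transcripts alone, mean TPM in acute ECs was 53.4 for Fzd6 and 46.1 for Lrp6, and shares of the Frizzled TPM became 66.5% for Fzd6 and 26.5% for Fzd4 in acute ECs, 10.8% for Fzd4 and 1.15% for Fzd8 in GFP-negative cells and 3.80% for Fzd8 in stabilized cultures. With a pseudocount of 0.1, 9 of the 16 most alike genes were the same.

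Over all genes, 1252 higher and 1142 lower between GFP-positive and GFP-negative cells became 647 and 893 with the length offset, 929 and 1419 by library size, and 1496 and 2978 without the TPM minimum. For WT cultures against acute ECs, 1866 and 1410 became 2149 and 1194 by library size, 3160 and 2829 without the TPM minimum, 1253 and 834 with wells summed and 1780 and 1816 with the length offset. For stabilized cultures against acute ECs, 2092 and 1530 became 3411 and 3215 without the TPM minimum and 1990 and 2032 with the length offset. Library-size scaling moved the median log2 change over all genes from -0.06 to -0.44, from 0.10 to 0.30 and from 0.04 to 0.16 in these comparisons.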
